A study of Mus musculus with 8 samples.

Results

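Chemokines are small secreted proteins that guide leukocytes, and chemokine receptors are the G protein-coupled receptors that read them. The gene group described here was chosen by symbol: genes named Ccl, Cxcl, Ccr or Cxcr followed directly by a digit, together with Xcl1, Xcr1, Cx3cl1, Cx3cr1 and Ackr1 to Ackr4. It held 56 of the 22180 genes measured, 34 ligands and 22 receptors, of which 55 were read by 1 probe set and Ccl27a by 2. The hearts came from 4 female and 4 male mice, all 8 months of age and all heterozygous for Pcyt2 (Pcyt2+/-), the gene of an enzyme of phosphatidylethanolamine synthesis. They were frozen after collection 3 to 4 hours after lights on, are labelled myocardium, and were each measured on 1 short-oligonucleotide expression array. All 8 share this genotype, with no wild-type group, so the comparison is of females with males among Pcyt2+/- mice and says nothing about the loss of a Pcyt2 allele.

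Ligands are named by the spacing of their first cysteines (CC, CXC, XC and CX3C). Inflammatory ligands such as Ccl2, Ccl5 and Cxcl1 are induced in tissue by cytokines and draw monocytes, T cells or neutrophils, whereas Cxcl12, Cxcl13 and the ligands of Ccr7 are made steadily and place lymphocytes and progenitors within tissue. Atypical receptors (Ackr1 to Ackr4) bind ligands without G protein signalling and take them up or store them. In the heart, Ccl2 with Ccr2 recruits monocytes after injury, Cxcl12 with Cxcr4 acts on vessels and progenitor cells, and Cx3cr1 marks macrophages.

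All values are log2 values relative to the median of the probe set over the 8 arrays, and all differences are females minus males. Because each probe set is centred, neither the level of a gene nor its detection above background is known, and genes cannot be ranked by abundance. The presence of heart muscle could not be checked for the same reason. The mean of 4 heart muscle genes (Myh6, Tnnt2, Tnni3 and Actc1) lay between -0.06 and 0.05 in females and between -0.03 and 0.03 in males. Xist was between 1.99 and 2.18 in females and between -3.02 and -1.99 in males, and Uty, Kdm5d and Eif2s3y ran the other way, so the sex labels held for all 8 arrays. Some arrays stood apart in tissue markers. The fast skeletal myosin gene Myh4 was highest in female 1, male 1 and male 2, reaching 1.03 in females and 2.23 in males. The liver gene Alb was at 1.76 in female 1 and 2.69 in female 2, and between -0.18 and 0.03 in all other hearts. The mean of the atrial genes Myl4, Myl7 and Sln was lowest in female 1 (-0.81), male 3 (-0.75) and male 1 (-0.23).

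The first question was whether females and males differed in any of the 56 genes. At a limma adjusted p under 0.05 over all 22180 genes, 0 of the 56 passed, against 0.0316% of all genes. At an unadjusted p under 0.05 there were 4, or 7.14%, against 6.96% of all genes: Ccl5 and Cxcl9 with higher means in females, and Ccl11 and Ackr4 with lower means. In each direction these were 2 genes, beside 3.63% of all genes for higher and 3.32% for lower in females. Female and male values did not overlap for 4 of the 56 genes, also 7.14%, against 3.74% of all genes. Ccl5 was higher in every female (1 gene, against 1.89% of all genes), and Ccl11, Ccr8 and Ccr6 were lower in every female (3 genes, against 1.85%). The median difference over the 56 genes was 0.0035, against -0.00058 over all genes, and 30 had higher and 26 lower means in females. The count at an unadjusted p under 0.05 depends on single arrays. It was 2 without male 4 (Ccl5 and Ccl11), against 6.52% of all genes, and 8 without male 1, against 6.68%.

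The 95% intervals, each for 1 gene by itself, give the range of differences in the measured values. For 51 of the 56 genes the 95% interval of the difference lay within 0.5 log2 units either side of 0, and for 43 within 0.25. Among all 22180 genes these counts were 21959 and 18915, a larger share in both cases. The 5 of the 56 genes with wider reach were Ccl5, Ccl9, Ccl11, Cxcl9 and Cxcl13, all ligands. The 22 receptors all lay within 0.5. Since detection is not known, a narrow interval does not bound the RNA difference of a gene that was not detected. In tissue RNA, fewer cells of a type and less RNA per cell cannot be told apart, which holds for every difference below.

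**Figure D1:**
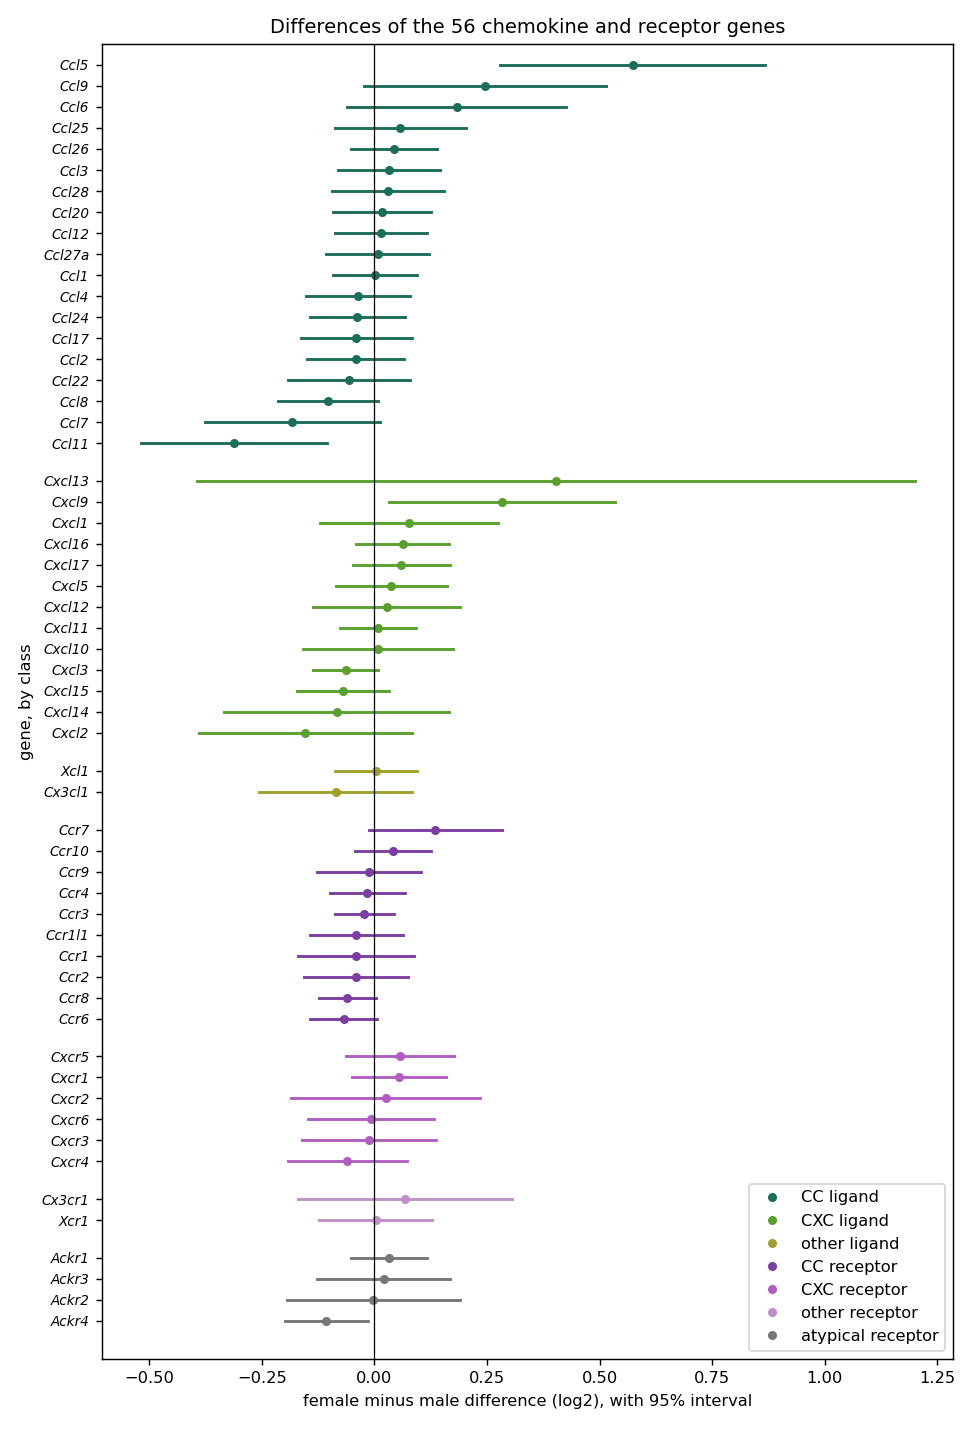
The difference of each of the 56 genes, females minus males in log2 units on the horizontal axis, with its 95% interval (limma, 4 arrays per sex), sorted within 7 classes of ligands and receptors. Ccl5 lies farthest above 0 (0.57) and Ccl11 farthest below (-0.31), Cxcl13 has the widest interval (-0.39 to 1.20), and most receptors sit close to 0.

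Among the 19 CC ligands, Ccl5 stood first. Ccl5 (RANTES) draws T cells, natural killer cells and monocytes through receptors such as Ccr1 and Ccr3, and is made in quantity by cytotoxic T cells and natural killer cells. It was at 0.37, 0.05, 0.30 and 0.05 in females 1 to 4, against -0.59, -0.30, -0.60 and -0.05 in males 1 to 4. Every female value was above every male value, but male 4 came within 0.1 of females 2 and 4. The means were 0.19 ± 0.17 in females and -0.38 ± 0.26 in males (SD, n = 4 each), a 1.49-fold difference (log2 0.57, 95% interval 0.28 to 0.87). The limma adjusted p was 0.437, so the difference did not pass over all genes. The receptor gene Ccr1 was at -0.10, -0.02, 0.02 and 0.02 in females 1 to 4, against -0.06, 0.17, -0.06 and 0.04 in males 1 to 4, a difference of -0.04 (95% interval -0.17 to 0.09). Ccr3 was at -0.0037, 0.02, -0.03 and -0.03 in females 1 to 4, against 0.03, 0.0037, 0.03 and -0.0047 in males 1 to 4, a difference of -0.02 (-0.09 to 0.04). The sexes overlapped in both.

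Markers of T and natural killer cells were set beside Ccl5. Of 13 measured markers out of 15 listed, 11 were higher on average in females. None passed the adjusted threshold (0 of 13), and 2 had an unadjusted p under 0.05, both higher in females. These were Cd3g, part of the T cell receptor complex, with a difference of 0.22 ± 0.07 (SE, limma adjusted p = 0.563), and the granzyme gene Gzma with 0.11 ± 0.04 (SE, adjusted p = 0.608). The sexes did not overlap in Cd3g and Gzma, 2 of the 13 markers, against 3.74% of all genes. Cd3d and Cd3e, of the same complex as Cd3g, had differences of 0.03 and -0.08, and the sexes overlapped in both. The mean of the list ran from 0.02 to 0.07 in females and from -0.05 to 0.02 in males. Male 3, with the lowest Ccl5 of the 8 hearts, had the highest list mean among males, and female 1, with the highest Ccl5, was not the highest female. The Ccl5 difference was 0.83 with the list's mean as a covariate (limma adjusted p = 0.537), and 0.57 without it. The part of these cells in the Ccl5 difference was not tested further.

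Ccl9 and Ccl6, ligands of Ccr1 found in rodents and made by macrophages and other myeloid cells, were the next CC ligands by higher mean in females. Ccl9 was at -0.12, 0.06, 0.49 and 0.24 in females 1 to 4, against -0.06, -0.16, 0.08 and -0.18 in males 1 to 4. Ccl6 was at -0.22, 0.11, 0.08 and 0.28 in females 1 to 4, against -0.06, 0.06, -0.27 and -0.21 in males 1 to 4. In both genes female 1 lay within the range of the males, and the sexes overlapped. The differences were 0.25 ± 0.12 for Ccl9 (SE, limma adjusted p = 0.728) and 0.18 ± 0.11 for Ccl6 (SE, adjusted p = 0.788). Single hearts moved both: Ccl9 was 0.14 without female 3, and Ccl6 was 0.11 without female 4 and 0.28 without female 1. With the T and natural killer cell mean as a covariate Ccl9 was 0.076 and Ccl6 was 0.18. With the adipocyte mean Ccl9 was 0.14 and Ccl6 was 0.035. The cause of these shifts was not tested. Of 9 macrophage and monocyte markers, 7 had higher means in females and 0 had an unadjusted p under 0.05, with a list mean from -0.09 (female 1) to 0.06 in females and from -0.10 (male 3) to 0.02 in males. Ccl3 and Ccl4, the other ligands next to them on the chromosome, had differences of 0.03 and -0.04.

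Ccl11 and most ligands listed under Ccr2 had lower means in females. Ccl11 (eotaxin-1) draws eosinophils through Ccr3 and is made by fibroblasts and other tissue cells. It was at -0.07, -0.33, -0.05 and -0.09 in females 1 to 4, against 0.08, 0.42, 0.16 and 0.05 in males 1 to 4. No female reached a male value, and female 2 and male 2 were the extremes. The means were -0.14 ± 0.13 in females and 0.18 ± 0.17 in males (SD, n = 4 each), a difference of -0.31 (95% interval -0.52 to -0.11, limma adjusted p = 0.55). Of other ligands of Ccr3, Ccl24 and Ccl26 had differences of -0.04 and 0.04, and Ccl5, named above with this receptor, had 0.57. Fibroblast markers, set beside Ccl11, had lower means in females in 2 of 4 genes, both at an unadjusted p under 0.05: Col1a1 (-0.44 ± 0.16 SE) and Dpep1 (-0.34 ± 0.10 SE). The other 2, Dcn and Pdgfra, had slightly higher means in females (0.03 each), so the markers did not share a direction. The mean of all 4 ran from -0.22 to -0.03 in females and from -0.03 to 0.21 in males. It was lowest in female 1 and highest in male 1, not in the hearts with the extreme Ccl11, and its part in the Ccl11 difference was not tested.

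Of the ligands listed under Ccr2 (Ccl2, Ccl7, Ccl8 and Ccl12), 3 of 4 had lower means in females. Whether mouse Ccl8 acts through Ccr2 is not shown by these data. Ccl7 was at -0.36, 0.02, -0.27 and -0.02 in females 1 to 4, against -0.08, 0.04, 0.08 and 0.05 in males 1 to 4. Ccl8 was at -0.01, -0.15, 0.01 and -0.03 in females 1 to 4, against -0.01, 0.03, 0.06 and 0.16 in males 1 to 4. The low Ccl7 of the females came from females 1 and 3, and the sexes overlapped in both genes. The differences were -0.18 ± 0.09 for Ccl7 and -0.10 ± 0.05 for Ccl8 (SE, limma adjusted p = 0.726 for each). Ccl7 was -0.11 without female 1, and Ccl8 was -0.07 without female 2 or without male 4. Covariates made the Ccl7 difference larger: -0.32 with the T and natural killer cell mean and -0.38 with the adipocyte mean. Ccl2, the best known of them, had a difference of -0.04 (95% interval -0.15 to 0.07) and Ccl12 one of 0.01 (-0.09 to 0.12). The receptor gene Ccr2 had one of -0.04 (-0.16 to 0.07). The remaining CC ligands were Ccl1, Ccl17, Ccl20, Ccl22, Ccl25, Ccl27a and Ccl28, whose differences ran from -0.06 (Ccl22) to 0.06 (Ccl25). The 2 probe sets of Ccl27a, which has near-identical copies in the genome, disagreed, with differences of 0.13 and -0.12. A further 33 probe sets that the platform assigns to Ccl19, Ccl21 or Ccl27 genes together with their copies carry several symbols and stayed outside the rule.

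**Figure D2:**
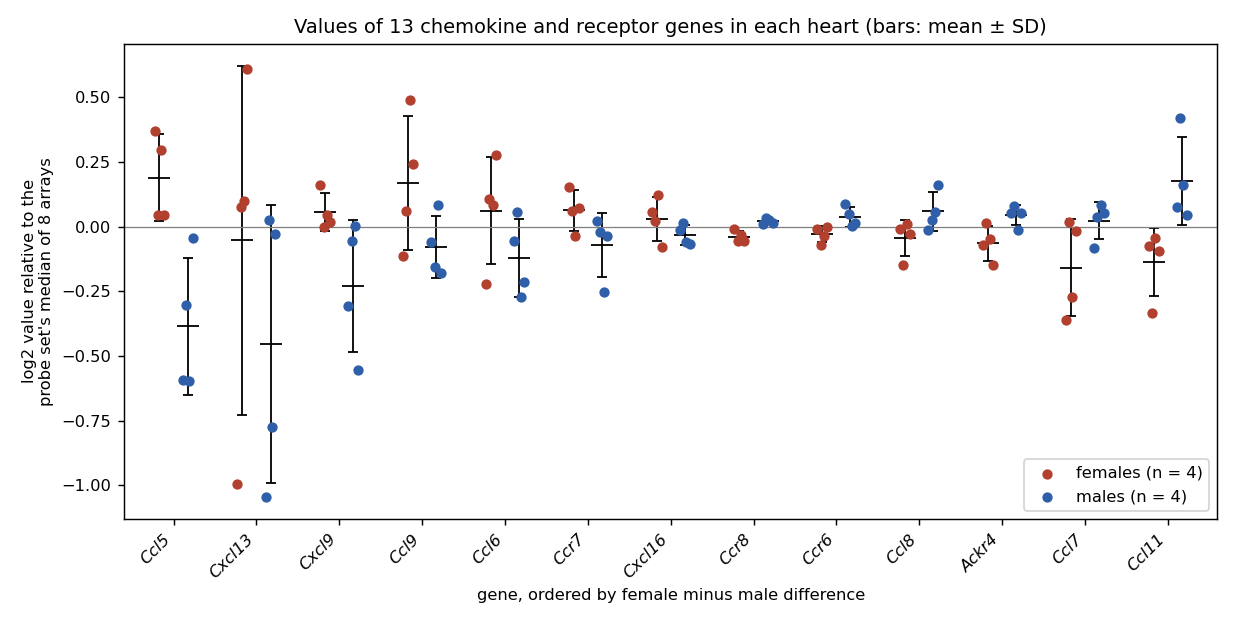
Log2 values of 13 genes relative to the median of 8 arrays, females in red on the left and males in blue on the right of each gene, with mean and SD (n = 4 each). The sexes separate for Ccl5, Ccl11, Ccr8 and Ccr6, the last 2 within a narrow range, and Cxcl13 runs from -0.996 to 0.61 in females and from -1.05 to 0.03 in males.

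Among the 13 CXC ligands, 9 had higher means in females. Cxcl9 had the smallest p. With Cxcl10 and Cxcl11 it forms the group of ligands that interferon gamma induces and that draw activated T cells through Cxcr3. Cxcl9 was at 0.16, -0.0026, 0.05 and 0.02 in females 1 to 4, against -0.31, -0.06, 0.0026 and -0.55 in males 1 to 4. The females lay close together, and males 1 and 4 were low while male 3 lay above female 2. The difference was 0.28 ± 0.11 (SE, limma adjusted p = 0.663). Without male 4 it was 0.18. As covariates, the mean of the T and natural killer cell markers gave 0.12 and the adipocyte mean 0.27. Cxcl10, Cxcl11 and Cxcr3 had differences of 0.01 (95% interval -0.16 to 0.17), 0.01 (-0.08 to 0.09) and -0.01 (-0.16 to 0.14). The gene of the inducer, Ifng, had one of 0.01.

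Cxcl13, which draws B cells through Cxcr5 and is also made by cells lining body cavities, varied more than any other of the 56 genes. It was at -0.996, 0.08, 0.10 and 0.61 in females 1 to 4, against -1.05, 0.03, -0.78 and -0.03 in males 1 to 4. The hearts fell into 3 with low values (female 1, male 1 and male 3) and 5 with higher ones, with a gap of 0.75 between male 3 and male 4, and both sexes stood on either side of it. The means were -0.05 ± 0.68 in females and -0.46 ± 0.54 in males (SD, n = 4 each), a difference of 0.40 with a 95% interval from -0.39 to 1.20 (limma adjusted p = 0.897). It was 0.72 without female 1, 0.18 without female 4 and 0.21 without male 1. The receptor gene Cxcr5 had a difference of 0.06 (-0.06 to 0.18) and an SD over the 8 hearts of 0.0808, against 0.605 for Cxcl13. B cell markers, 3 of 4 measured, had list means from -0.05 to 0.09 in females and from -0.04 to 0.05 in males.

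The 3 hearts with low Cxcl13 were also the 3 with the lowest atrial markers. The mean of Myl4, Myl7 and Sln was -0.81, 0.57, -0.09 and 0.33 in females 1 to 4, against -0.23, 0.24, -0.75 and 0.09 in males 1 to 4. Bmp10, a growth factor gene known from the right atrium and picked here after its values were seen, was at -3.46, 0.91, -0.39 and 0.50 in females 1 to 4, against -3.35, 0.39, -2.25 and 0.53 in males 1 to 4. The low hearts were the same in all 3 measures, while the order within the higher hearts differed: female 4 led in Cxcl13 and female 2 in the atrial measures. In the atrial mean, male 1 lay closer to female 3 than to male 3 and did not stand apart from the higher hearts. Since the Cxcl13 values form separate clusters, no correlation is given. Mesothelial genes, listed after the values were seen (Msln, Upk3b, Wt1, Lrrn4, Upk1b and Krt19), had means of -0.20, -0.03, 0.08 and 0.35 in females 1 to 4, against -0.04, 0.02, -0.07 and 0.22 in males 1 to 4. Female 4 was highest in these as in Cxcl13. Female 1 was lowest in these, but male 1 was lowest in Cxcl13. Males 1 and 3, low in Cxcl13, were at -0.04 and -0.07 here, near female 2 at -0.03. Male 4, at 0.22 here, was at -0.03 in Cxcl13. With the atrial mean as a covariate the Cxcl13 difference between the sexes was 0.25. With the adipocyte mean, which ran from -0.09 to 0.56 in females and from -0.32 to 0.03 in males, it was -0.24. The parts of these tissues in the Cxcl13 values were not tested further.

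**Figure D3:**
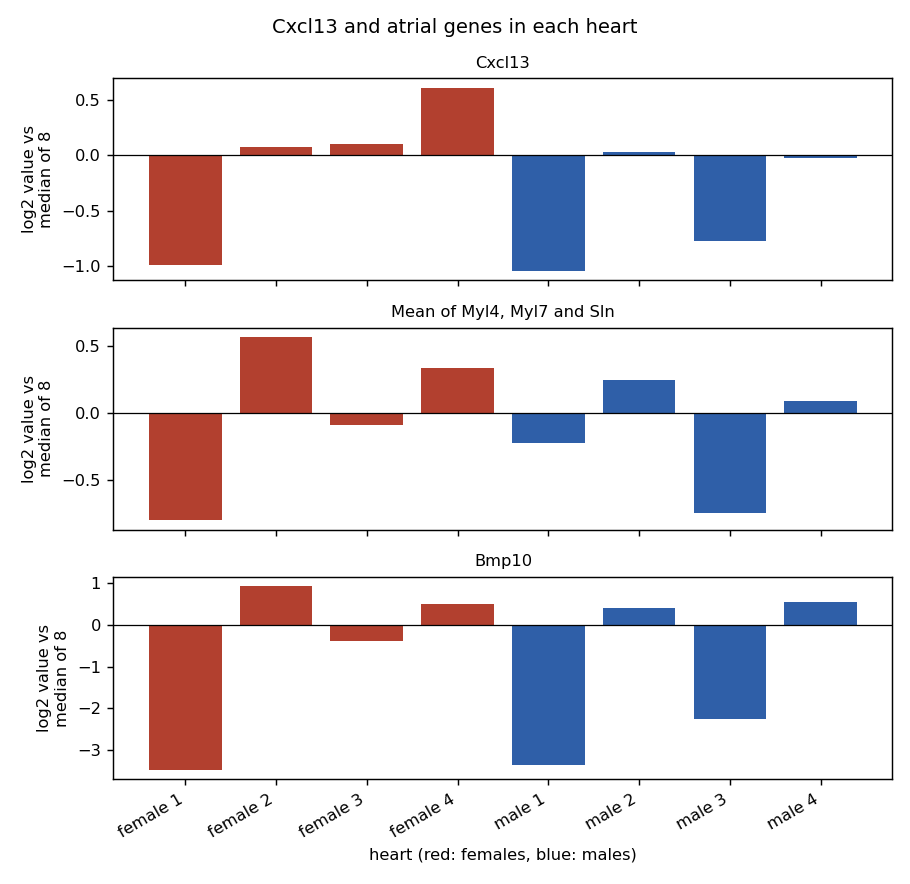
Log2 values relative to the median of 8 arrays of Cxcl13 (top), the mean of 3 atrial genes (middle) and Bmp10 (bottom) in each heart, females in red on the left, males in blue on the right. Female 1, male 1 and male 3 have the lowest bars in all 3 panels, with Bmp10 at -3.46, -3.35 and -2.25.

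The neutrophil-drawing CXC ligands showed no common direction. Cxcl1 and Cxcl5 had higher means in females (0.08 and 0.04), and Cxcl2, Cxcl3 and Cxcl15 lower ones (-0.15, -0.06 and -0.07). Cxcl2 was between -0.21 and -0.17 in females 1 to 3 and 0.23 in female 4, against 0.13 to 0.15 in males 1, 2 and 4 and -0.13 in male 3. One heart of each sex thus sat with the other sex. Their receptor genes Cxcr1 and Cxcr2 had differences of 0.05 and 0.02. Cxcl12, the ligand of Cxcr4 and of the scavenging receptor Ackr3, had a difference of 0.03 (95% interval -0.14 to 0.19). Cxcr4 had -0.06 (-0.19 to 0.07) and Ackr3 0.02 (-0.13 to 0.17), so none of the 3 reached a difference of 0.25 in either direction within its interval. Cxcl14, Cxcl16 and Cxcl17 had -0.08, 0.06 and 0.06. Cxcl16, a membrane-bound ligand of Cxcr6, was at 0.06, 0.02, 0.12 and -0.08 in females 1 to 4, against -0.01, 0.01, -0.06 and -0.07 in males 1 to 4, with female 4 the lowest heart of all. The Cxcl16 difference was 0.03 without female 3 and 0.10 without female 4. Cxcr6 had a difference of -0.01.

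Of the ligands with other cysteine spacing, the membrane-bound Cx3cl1 had a difference of -0.09 (95% interval -0.26 to 0.08) and Xcl1, made by activated lymphocytes, one of 0.0037 (-0.09 to 0.09). Their receptor genes Cx3cr1 and Xcr1, the first a macrophage and monocyte gene and the second a gene of cross-presenting dendritic cells, had differences of 0.07 and 0.0032. Cx3cr1 was at 0.10, 0.17, -0.33 and 0.16 in females 1 to 4, against -0.05, -0.13, 0.04 and -0.04 in males 1 to 4, so that female 3 alone was lower than every male. Without female 3, Cx3cr1 was one of 6 genes of the group at an unadjusted p under 0.05, when 6.67% of all genes were.

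The differences of the receptor genes spanned a narrower range than those of the ligand genes, which was not tested. Of the 22, 9 had higher and 13 lower means in females, and the differences ran from -0.11 (Ackr4) to 0.14 (Ccr7). Of the 34 ligand genes, 21 had higher and 13 lower means, from -0.31 to 0.57. Among the 10 CC receptor genes 8 had lower means in females, with a median of -0.03, while 49.6% of all genes had higher means. In this class the 95% intervals of all 10 included 0. Ccr7, the homing receptor of T cells and dendritic cells for lymph nodes, was at 0.15, 0.06, -0.04 and 0.07 in females 1 to 4, against 0.02, -0.02, -0.25 and -0.04 in males 1 to 4. Male 3 was far below the rest, and the difference was 0.14 ± 0.07 (SE, limma adjusted p = 0.726) with it and 0.075 without it. The Ccr7 difference was 0.28 with the T and natural killer cell mean as a covariate and 0.21 with the adipocyte mean.

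Both receptor genes with separated sexes lay within a narrow range. Ccr8, found on regulatory and type 2 helper T cells, was between -0.06 and -0.0099 in females and between 0.0099 and 0.03 in males, a difference of -0.06 ± 0.03 (SE, limma adjusted p = 0.726). Ccr6, the receptor of Ccl20 on B cells and type 17 helper T cells, was between -0.07 and -0.003 in females and between 0.003 and 0.09 in males, a difference of -0.07 ± 0.03 (SE, adjusted p = 0.728). Their SDs over the 8 hearts, 0.0361 and 0.0487, were below the median SD of all genes, 0.0754. Ccl1, a ligand of Ccr8, and Ccl20 had differences of 0.0016 and 0.02. Ackr4, which scavenges the ligands of Ccr7 and Ccr9, was at -0.07, 0.01, -0.05 and -0.15 in females 1 to 4, against 0.05, 0.08, -0.01 and 0.05 in males 1 to 4. Its sexes overlapped through female 2 and male 3, and the difference was -0.11 ± 0.04 (SE, limma adjusted p = 0.662). With the T and natural killer cell mean as a covariate it was -0.014, and with the adipocyte mean -0.06. The other atypical receptor genes, Ackr1, Ackr2 and Ackr3, had differences of 0.03, -0.0025 and 0.02.

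The widest spread from heart to heart was found among ligand genes. An SD over the 8 hearts within the highest 10% of all genes was found for 12 of the 56 genes, or 21.4%, of which 10 were ligands (29.4% of 34) and 2 receptors (9.09% of 22). The ligands were Cxcl13, Ccl5, Cxcl9, Ccl9, Ccl11, Ccl6, Cxcl2, Cxcl14, Ccl7 and Cxcl1, and the receptors Cx3cr1 and Cxcr2. At the other end, Ccr3 had an SD of 0.0229, above that of only 3.74% of all genes, and stayed between -0.03 and 0.02 in females and between -0.0047 and 0.03 in males. The median SD of the ligands, 0.0797, and of the receptors, 0.0776, were close to the 0.0754 of all genes, so the wide spread lay in a minority of the ligands. Whether genes of low spread were detected at all is not known from centred values.

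**Figure D4:**
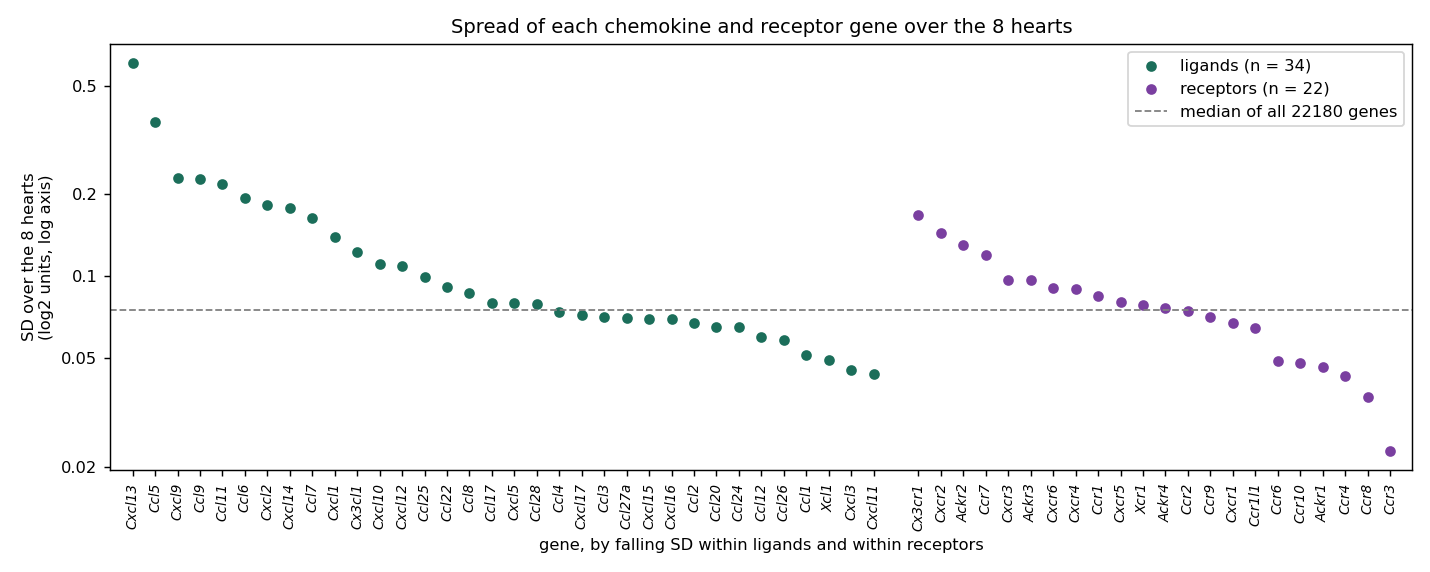
SD over the 8 hearts of each of 34 ligand genes (left) and 22 receptor genes (right), in log2 units on a log axis, with the median of all 22180 genes as a dashed line (0.0754). Cxcl13 (0.605) and Ccl5 (0.369) stand above the rest, and Ccr3 (0.0229) is lowest.

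Upstream sequences are shown for 4 of the 6 genes with the largest spread, as the group's ligands are known for control at the promoter. They are from RefSeq (GRCm38.p6), which gave a start region for 42 of the 56 genes, with Ccl5 and Ccl11 not shown. Each is the 250 bases before the annotated start, on the strand of the gene, with capitals marking matches on either strand to 3 motifs: GGG, 5 bases of any kind and CC (a loose form of the NF-kappa B site), GAAA, 2 bases of any kind and GAAA (the core of interferon response elements), and TATAAA (the TATA box). The regions are chr5:95956689-95956938 (plus strand) for Cxcl13, chr5:92328080-92328329 (minus strand) for Cxcl9, chr11:83578637-83578886 (minus strand) for Ccl9 and chr11:83593088-83593337 (minus strand) for Ccl6.
Cxcl13: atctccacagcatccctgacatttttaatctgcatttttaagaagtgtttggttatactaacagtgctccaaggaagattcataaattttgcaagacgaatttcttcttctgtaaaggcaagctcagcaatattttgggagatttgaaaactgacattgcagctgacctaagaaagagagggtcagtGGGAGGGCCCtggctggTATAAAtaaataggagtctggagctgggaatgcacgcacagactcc
Cxcl9: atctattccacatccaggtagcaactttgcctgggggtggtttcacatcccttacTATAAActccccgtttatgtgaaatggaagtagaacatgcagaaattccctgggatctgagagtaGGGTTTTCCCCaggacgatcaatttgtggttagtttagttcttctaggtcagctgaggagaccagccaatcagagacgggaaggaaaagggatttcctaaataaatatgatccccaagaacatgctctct
Ccl9: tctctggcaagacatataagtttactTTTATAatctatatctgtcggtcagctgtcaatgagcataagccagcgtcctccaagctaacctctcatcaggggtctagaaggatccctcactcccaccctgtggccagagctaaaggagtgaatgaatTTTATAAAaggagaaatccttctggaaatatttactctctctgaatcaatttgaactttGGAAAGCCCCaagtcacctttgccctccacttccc
Ccl6: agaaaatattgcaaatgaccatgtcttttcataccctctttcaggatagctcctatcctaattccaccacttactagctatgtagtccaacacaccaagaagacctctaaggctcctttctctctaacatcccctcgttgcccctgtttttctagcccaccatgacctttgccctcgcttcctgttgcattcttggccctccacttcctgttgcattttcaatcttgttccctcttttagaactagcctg
The kappa B form began 63 bases before the start in Cxcl13, 130 and 129 bases before it in Cxcl9 (2 overlapping matches) and 35 bases before it in Ccl9, and Ccl6 held no match to any of the 3. TATAAA began 46 bases before the start of Cxcl13, 195 before that of Cxcl9 and 224, 94 and 92 before that of Ccl9, the last 2 overlapping. Over the 42 genes, the kappa B form was found in 25 (59.5%, against 48.7% of 27025 genes), the interferon form in 2 (4.76%, against 3.46%) and TATAAA in 14 (33.3%, against 14.3%). The interferon form was found upstream of Cxcl10 and Cxcl14. These are matches of letters only.

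Many chemokine genes are neighbours on the chromosome. With RefSeq (GRCm38.p6) gene order, 35 of the 56 genes fell into 9 runs of neighbours less than 200 kb apart. On chromosome 11, the run of Ccl5, Ccl9, Ccl6, Ccl3 and Ccl4 had higher means in females for 4 of 5 genes (median difference 0.18). The run of Ccl2, Ccl7, Ccl11, Ccl12, Ccl8 and Ccl1 on the same chromosome had lower means for 4 of 6 (median -0.07). Both runs hold CC ligands of myeloid and T cells, and their largest differences had opposite signs. On chromosome 9, the receptor run of Ccr9, Cxcr6, Xcr1, Ccr1, Ccr1l1, Ccr3 and Ccr2 had differences between -0.04 and 0.0032. On chromosome 5, Cxcl9 stood out from its neighbours Cxcl10 and Cxcl11 with 0.28 against 0.01 in each.

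**Figure D5:**
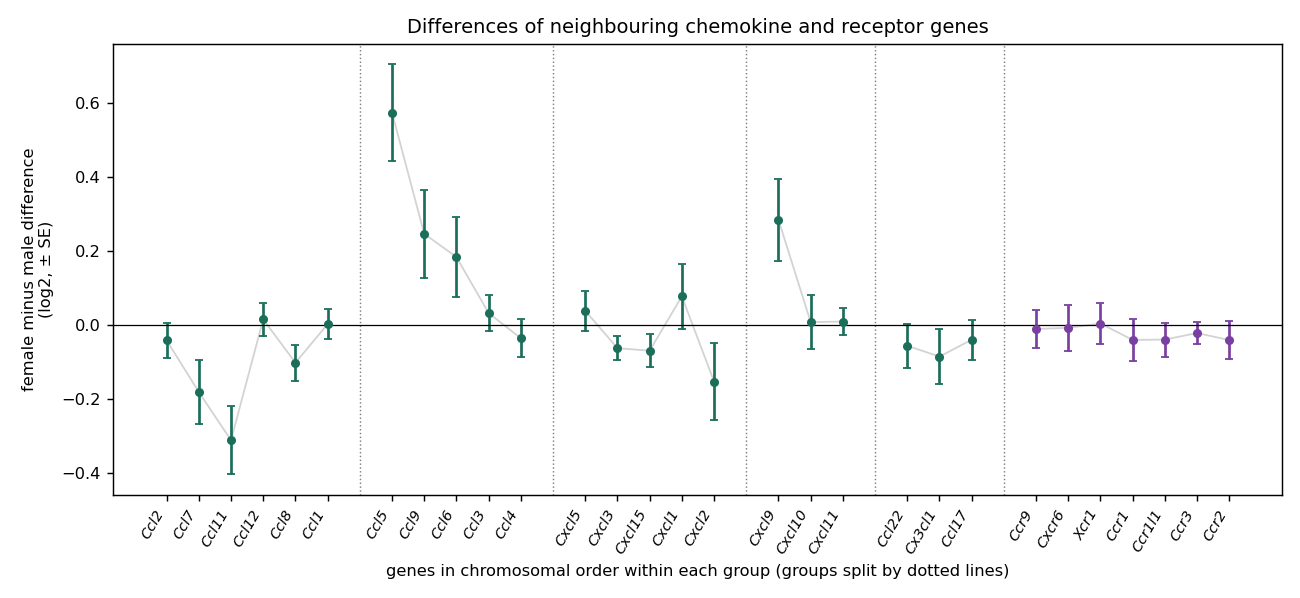
Differences, females minus males in log2 units with SE (limma, 4 arrays per sex), of genes in the 6 runs of at least 3 neighbours, in chromosomal order within each run, ligand runs in green and the receptor run in purple. The run from Ccl5 to Ccl4 lies mostly above 0 and the run from Ccl2 to Ccl1 mostly at or below it, and the 7 receptor genes at the right lie near 0.

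Genes that carry the receptor signal and those that induce the ligands were compared in the same fit, and 0 of them passed. Of 13 measured genes of receptor coupling (G protein subunits, receptor kinases, arrestins and RGS proteins), 9 had higher means in females, 1 at an unadjusted p under 0.05. This was Arrb2, a beta-arrestin gene whose protein ends receptor signalling, with 0.11 ± 0.04 (SE, limma adjusted p = 0.64), and the signal-limiting gene Rgs1 had 0.08 ± 0.04 (SE). Of 17 genes of migration signalling, 9 had higher and 8 lower means, 1 of them at an unadjusted p under 0.05. This was Was, the Wiskott-Aldrich actin regulator gene of blood cells, with -0.11 ± 0.04 (SE, adjusted p = 0.658), and the next, the adhesion adaptor gene Pxn, had 0.04. Of 14 genes of ligand induction 10 had higher means in females and 0 had an unadjusted p under 0.05, and the smallest p belonged to Tlr2 (log2 difference 0.08) and Klf13 (log2 difference 0.15), a factor known to act on the Ccl5 promoter in T cells. Of 13 related genes outside the symbol rule 7 had higher means and 0 had an unadjusted p under 0.05, led by Cmtm6 (-0.11) and the endothelial chemokine scavenger gene Gpr182 (0.22). Against the median of -0.00058 over all genes, the medians of the 4 lists were 0.06, 0.01, 0.03 and 0.03.

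Markers of the remaining leukocytes and tissues were also read. The adjusted threshold was passed by 0 genes of these lists. Of 6 neutrophil and mast cell markers 4 had higher means in females, 1 at an unadjusted p under 0.05, with the mast cell tryptase gene Tpsb2 at 0.11 and Cma1 at 0.02. Dendritic cell markers had 2 of 3 higher (Cd209a -0.03, Flt3 0.03), B cell markers 2 of 3 (Ms4a1 0.07, Cd79b -0.03) and thymus markers 1 of 2 (Dntt 0.01, Ptcra -0.0033). Platelet genes had 2 of 3 higher, with Itga2b at 0.09 (the 1 gene there at an unadjusted p under 0.05) and Ppbp at -0.11, and macrophage markers were led by Fcgr1 at 0.12 and Ly6c2 at 0.17. Endothelial markers had 3 of 4 lower in females, with Kdr at -0.19 and Cdh5 at -0.11, both at an unadjusted p under 0.05. Adipocyte markers were higher in all 4 (Retn 0.46, Adipoq 0.22), 3 of them at an unadjusted p under 0.05, fast skeletal muscle genes lower in all 4 (Myh2 and Actn3, each -0.17), atrial genes higher in all 3 (Myl7 0.25, Sln 0.20) and heart muscle genes in 2 of 4 (Tnni3 0.02, Actc1 -0.03).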

How the data were processed

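The deposited table holds log2 values of 34351 probe sets on 8 arrays. Per the labels' protocols, 100 ng of total RNA per heart gave biotinylated cRNA for an Affymetrix array. How background correction, normalization and summarization were done is unstated here, as is the log base, taken as 2. All 34351 probe sets have a median of 0 (tolerance 1e-06), and array medians lie between -0.0021 and 0.0023. No scan batch is given.

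Probe sets with 1 gene symbol in the platform annotation (23521) were averaged per gene to 22180 genes. Females were compared with males in R 4.3.3 by a limma 3.58.1 model of sex alone with moderated variances, and p-values were adjusted by Benjamini-Hochberg over all genes (threshold 0.05). The code was tested on simulated data. The labels call the arrays biological replicates, and their number limits the precision. The members and lists were chosen with earlier results of these data known. Values per array are given for Ccl5, Ccr1 and Ccr3, the 6 members per direction with the smallest p and the 6 with the largest SD, and of each list the 2 genes with the smallest p are named. Any other gene given with its values was chosen after they were seen. Alternatives were other normalizations, probe sets by themselves, other eBayes settings, array weights, a replicate block, covariates, autosomal genes only, a threshold of 0.1 and each array left out in turn. Added after seeing the data were the atrial and adipocyte covariates and a fit lacking the 3 arrays highest in Myh4.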

Additional observations from a re-analysis of the deposited data

Results flagged for a closer look

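In groups of 4, a value was marked when its gap to the nearest other value as a share of the group's range exceeded Dixon's 95% critical value, which chance does in about 1 in 20 groups. Of 150 groups (the 56 genes and 19 gene lists, in each sex), 16 were marked, or 10.7%. Of these, 12 were groups of single genes and the rest were list means. The share marked among all measured genes was not determined. Whether the chemokine genes or the lists were marked more often than other genes was therefore not tested.

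Among females, female 2 lay apart from the other 3 for Ackr3 at -0.14 (the others between 0.0027 and 0.008), Ccl11 at -0.33 (between -0.09 and -0.05), Cxcl15 at 0.063 (between -0.06 and -0.04) and Cxcr4 at -0.12 (between -0.02 and 0.00083). Female 3 lay apart for Ccl2 at 0.072 (between -0.05 and -0.03) and Cx3cr1 at -0.33 (between 0.10 and 0.17). Female 4 lay apart for Cxcl2 at 0.23 (between -0.21 and -0.17) and Cxcl5 at 0.16 (between -0.0069 and 0.0051), and female 1 for Cxcl12 at -0.22 (between 0.01 and 0.03). Among males, male 3 lay apart for Ccl26 at -0.11 (between -0.00092 and 0.02) and Cxcl2 at -0.13 (between 0.13 and 0.15), and male 2 for Ccl4 at 0.16 (between -0.0012 and 0.0035).

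Of the cell marker lists, the mean of the T and natural killer cell markers was 0.066 in female 4 (the other females at 0.02) and 0.0204 in male 3 (the other males between -0.05 and -0.04). Macrophage and monocyte markers were at -0.0851 in female 1 (between 0.05 and 0.06), and neutrophil and mast cell markers at -0.0607 in male 1 (between -0.0036 and 0.0062).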

How the results depend on the processing

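Under all 20 alternatives 0 of the 56 genes passed at the adjusted threshold, with a lowest adjusted p of 0.231 (Ccl5 without male 4). The Ccl5 difference kept its direction in 19 alternatives, from 0.45 (without the 3 arrays with the highest Myh4) to 0.83 (T and natural killer cell markers as a covariate), with adjusted p from 0.231 to 0.666. With 1 array left out it ran from 0.50 to 0.69. The count of genes whose sexes did not overlap was 4 to 7 with 1 array left out, when 6.28% to 7.77% of all genes did not overlap, and 14 without the 3 arrays with the highest Myh4 (22.7% of all genes). Fewer arrays overlap less by construction. The median difference was -0.016 to 0.013 with 1 array left out, the lowest without female 1. At an unadjusted p under 0.05 there were 2 to 8 genes with 1 array left out, when 6.06% to 7.84% of all genes were, and 7 without the 3 arrays with the highest Myh4 (7.29% of all genes). For the other 12 genes given by array, 227 of 228 values kept their direction and side of the threshold, and the Cxcl13 difference of -0.24 with the adipocyte covariate reversed. The cause was not tested. Female and male arrays share replicate numbers, which the labels do not call pairs. Deviations of same-numbered arrays correlated at 0.0062 to 0.137, all above 0, and 5 of 8 arrays correlated best with their own number. This does not settle whether the numbers mark pairs, and the main fit did not use them. With the replicate number as a block, 8 genes had an unadjusted p under 0.05 (7.64% of all genes), against 4 in the main fit. With the block 0 passed, and Ccl5 had a limma adjusted p of 0.543. Filters on brightness could not be run on centred values, which also limits what can be said of detection.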
